A study of Mus musculus with 38 samples.

Results

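The 9 Crb2 cKO retinas of postnatal day 0 (P0, 5 retinas) and day 10 (P10, 4 retinas) were chosen by genotype and age alone from the 38 mouse retinas on the arrays, to describe how far the retina matured over these days with Crb2 deleted. The study profiled cKO and control retinas from P0 to P10 to look for changes in gene activity that go before or along with the disorganisation of the mutant retina. Each cKO retina was Crb2F/F with 1 copy of a Cre transgene, in which Cre in retinal progenitors deletes the end of Crb2, and each control was Crb2F/+ with 1 copy of it, so that the controls carry the same Cre and 1 floxed allele. The mice had been backcrossed to C57BL/6J, and each sample is the neural retina of 1 eye without the pigment epithelium. The deletion may limit the model. From a reporter cross, the study proposes that the Cre acts in a mosaic, with recombined cells beside cells that were not. Its staining at P10 showed the CRB2 protein gone throughout the mutant retina. With primers inside the deleted stretch, the study's PCR found less Crb2 transcript in cKO than in control retinas at P3. At P10 it found no difference, and the study proposes that cells without Crb2 had become a smaller share by then. The array probe for Crb2 lies outside the deleted stretch, so its signal says nothing about whether Crb2 was removed. Of the 2 sample lists of the study, 1 gives the P10 retinas the opposite genotype. The labels, the other list and the deposited list of hybridisations have the genotypes used here, and the exchange was tried as an alternative.

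At birth the mouse retina still holds dividing progenitors, which give rise in these days to the last rods, to bipolar interneurons and to Müller glia. Rods and cones then build outer segments with an opsin and its G protein cascade, bipolar cells set up the receptor and channel with which they read photoreceptor glutamate, and Müller glia take over the recycling of glutamate and retinoids. Crumbs proteins such as CRB2 sit at the apical junctions of progenitors, photoreceptors and Müller glia, where they keep the tissue in layers.

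All values are log2 intensities of single array channels after background correction and quantile normalization, and a change is the P10 mean minus the P0 mean, so that 1 is a doubling. A probe rose or fell when limma gave an adjusted p below 0.05 over all 39283 probes tested. Standard errors (SE) are those of limma, whose spread is shared by the 8 groups of age and genotype, and the number of arrays limits the precision. By the scanner software's test, 69.8, 73.1, 72.3, 75.0 and 70.6% of features were well above background in P0 replicates 1 to 5. In P10 replicates 1 to 4 the shares were 69.6, 71.0, 68.9 and 80.2%. Since these are whole retinas, fewer cells of a type and less RNA per cell cannot be told apart.

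From P0 to P10, 8928 probes rose (22.7% of those tested) and 9992 fell (25.4%), which together are 18920 probes or 48.2%. Over all probes, called or not, the median absolute change was 0.36 and the median change -0.05. Over 2-fold, 3164 probes rose (8.05%) and 2474 fell (6.30%), and over 16-fold, 113 rose (0.288%) and 152 fell (0.387%). With each channel scaled to the same median and no quantile normalization (median scaling), 3408 rose and 5408 fell. For 15537 probes (39.6%) the 4 retinas of P10 and the 5 of P0 did not overlap. Across all probes, the Pearson correlation between retinas was 0.987 to 0.991 in the 10 pairs within P0 and 0.983 to 0.993 in the 6 pairs within P10. In the 20 pairs between the ages it was 0.944 to 0.959, lower than in any pair within an age. These correlations are across probes, which are not independent of each other, and describe the retinas only.

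No slide held cKO retinas of both P0 and P10, and P10 was scanned on a single day on which no P0 array was, so a value within a slide or a scan day cannot be had. By the study's records of its samples, RNA integrity was mostly lower and dye per cRNA higher at P10 than at P0, and the part of this in the changes was not tested. Both can be set as blocks only through P3 and P6. With the slide as a fixed block 6791 probes rose and 6748 fell from P0 to P10, and with the scan day as one 7176 rose and 7052 fell. Of the probes called both with and without the slide block, 11712 in number, 37 had the opposite direction.

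**Figure D1:**
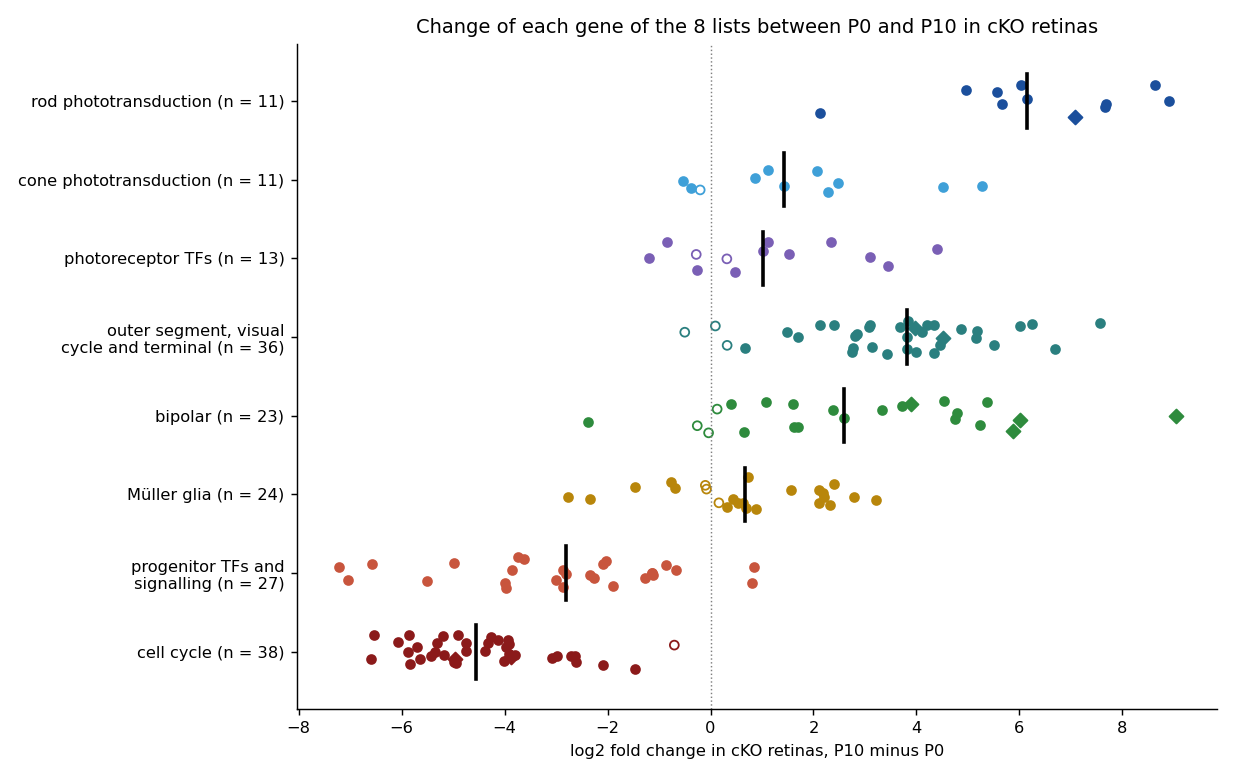
Log2 change from P0 to P10 in cKO retinas (5 at P0, 4 at P10) for each gene of the lists of cell types. Filled points are past the threshold and open ones are not, with a bar at each median. Diamonds mark genes below background at P0 or P10, whose change is known only as a bound. They are drawn at the measured difference and not at the bound. Rod genes lie highest, with a median of 6.14, and cell cycle genes lowest, with a median of -4.56.

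Rod genes moved furthest among the photoreceptor genes. Gnat1, the α subunit of the rod G protein, is measured by probe A_52_P211185 on mm9 chromosome 9 from 107577023 to 107577082. Its log2 intensity was 7.10, 6.69, 6.52, 6.54 and 6.31 in the 5 retinas of P0 and 16.05, 15.10, 15.13 and 14.80 in the 4 of P10, with P10 replicate 1 the highest. All 4 P10 retinas were far above all 5 of P0, and the means of 6.63 ± 0.294 and 15.27 ± 0.544 (SD) are 398-fold apart. The change was 8.64 (SE 0.203, adjusted p = 4.15e-27), and an exact permutation test over the 126 ways to split 9 retinas gave a two-sided p of 0.0159, the smallest it can give.

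All 11 genes of the rod cascade rose, against 22.7% of all probes, with a median change of 6.14, or 6.03 with the gene below background at P0 set to its bound. The summed intensity of the 11 was 17637 to 26302 in the P0 retinas and 623117 to 741561 in those of P10. Pde6a and Pde6b, the catalytic subunits of the phosphodiesterase that breaks down cGMP, rose by 7.66 and 5.65. Cnga1 and Cngb1, which form the cGMP-gated channel of rods, rose by 7.67 and 6.14, and Sag, the arrestin of rods, by 5.56. The exchanger Slc24a1, which returns calcium to the outside, did not exceed background at P0 (0 of 5 retinas), and its level at P10 was higher by at least 62.8-fold. The smallest rise of the list was 2.12, for the β subunit Gnb1.

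Cone genes moved less and not in 1 direction. Of the 11 genes of the cone cascade, 8 rose and 2 fell, against 22.7% and 25.4% of all probes, and 1 did not pass, with a median change of 1.42. With median scaling 6 rose and 0 fell, with a median of 0.84. Opn1mw, the opsin of cones for medium wavelengths, had the largest rise of the list. It was 6.73, 6.12, 6.47, 6.46 and 6.87 at P0 and 12.09, 11.87, 11.77 and 11.50 at P10, a 38.8-fold rise (log2 change 5.28, SE 0.134, adjusted p = 2.60e-26) in which all P10 retinas were above all P0 retinas. Opn1sw, the opsin for short wavelengths, went from 6.95 ± 0.296 to 7.81 ± 0.151 (SD), a rise of 0.86 (SE 0.140, adjusted p = 2.74e-06) that did not pass in Cy3 retinas only (0.56). Arr3, the cone arrestin, rose by 4.52. Gngt2, the γ subunit of cone transducin and the brightest gene of the list, fell from 15.43 to 14.90 (log2 change -0.53, adjusted p = 1.39e-04), but lost its call with the slide (-0.52) or the scan day (-0.30) as a fixed block and with median scaling (-1.28), where the change itself was larger. The channel subunit Cngb3 fell by 0.38, with overlapping groups, and lost its call with median scaling (-0.61), in Cy5 retinas only (-0.11) and with the methods' t-test (-0.38), while its partner Cnga3 had a change of -0.20 (adjusted p = 0.133), called as a fall in Cy3 retinas only (-0.45).

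The pairs that do the same work in rods and cones show the gap gene by gene. Gnat1 rose by 8.64 and its cone counterpart Gnat2 by 1.11, from a cone level that was already 12.63 at P0, and with median scaling the rise of Gnat2 (0.48, adjusted p = 0.521) did not pass. For the γ subunits, Gngt1 of rods rose by 6.03 where Gngt2 of cones fell. The inhibitory phosphodiesterase subunit of rods, Pde6g, rose by 4.96 and that of cones, Pde6h, by 2.48. The catalytic subunit of cones, Pde6c, rose by 2.29, less than Pde6a or Pde6b. The β subunits lay closest together among the pairs in which both rose, at 2.12 for Gnb1 and 1.42 for Gnb3, but Gnb3 (0.80, adjusted p = 0.264) did not pass with median scaling. The calcium exchanger of cones, Slc24a2, rose by 2.07. In every pair shown the rod change was the higher.

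**Figure D2:**
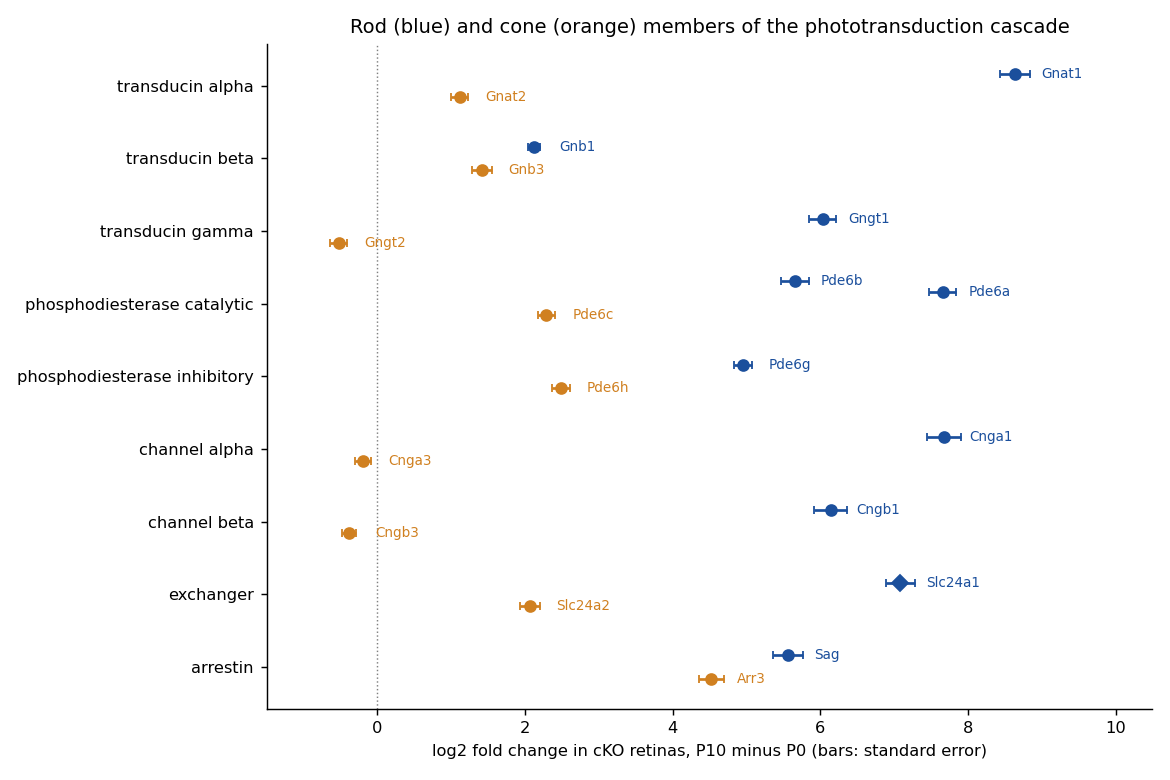
Log2 change from P0 to P10 in cKO retinas for rod genes (blue) and their cone counterparts (orange), with bars of 1 SE from limma (5 retinas at P0, 4 at P10). Gnat1 rose by 8.64 and Gnat2 by 1.11, and the diamond marks Slc24a1, which was below background at P0. The diamond is drawn at the measured difference and not at the bound.

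Of the 13 transcription factors that set photoreceptor fate and maturation, 8 rose and 3 fell, against 22.7% and 25.4% of all probes, with a median change of 1.01. With median scaling 5 rose, against 3408 of 39283 probes, and with the slide as a fixed block 1 fell. Nrl, which commits precursors to the rod fate, was 14.24, 14.59, 14.49, 14.03 and 13.71 at P0 and 17.26, 17.36, 17.42 and 17.24 at P10, a rise of 3.11 between groups that were far apart. Its partner Nr2e3 rose by 3.45, and Crx, which drives the genes of both rods and cones, by 2.35. Esrrb, an orphan nuclear receptor of rods, had the largest rise of these factors, from 9.52 to 13.91 (4.40). The factors that fell were Rxrg (-1.20), a nuclear receptor of early cones, Prdm1 (-0.84), which keeps precursors from the bipolar fate, and Rorb (-0.27). Prdm1 lost its call with the slide as a fixed block (-0.50, adjusted p = 0.0932). Rorb lost its call with median scaling (-0.88), with the slide as a fixed block (-0.37), in Cy5 (-0.24) or Cy3 (-0.29) retinas only, with only the groups compared (-0.27), or without P0 replicate 2 (-0.23), P0 replicate 3 (-0.25), P10 replicate 2 (-0.25) or P10 replicate 4 (-0.23). Thrb, which directs cones toward the medium wavelength opsin, rose by 1.12, or by 0.66 with median scaling, where it did not pass (adjusted p = 0.284). Otx2, which stands above Crx, was already at 15.88 at P0 and had a change of 0.32 (adjusted p = 0.0640). With Sall3, a factor of horizontal cells and cones (-0.28, adjusted p = 0.263), it was 1 of 2 that did not pass, both named after their values were seen.

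The structural and visual cycle genes of photoreceptors followed the rod genes. Of 36, 33 rose, against 22.7% of all probes, and 0 fell, with a median of 3.82 (3.75 with bounds). Rcvrn, a calcium sensor of the cascade, rose most among these, from 9.45 to 17.02, which is 190.0-fold (log2 change 7.57, SE 0.190, adjusted p = 2.03e-26). Prph2, which shapes the rim of outer segment discs, rose by 4.34. Rdh8 (0.32, adjusted p = 0.161) and Rgs9 (0.09, adjusted p = 0.378) did not pass and were named after their values were seen. The other probes of Rgs9 gave -0.04 and 1.59.

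The promoters of rod and cell cycle genes are shown because these groups moved furthest in opposite directions, and letters tied to each could be searched in them. The table of RefSeq promoters (build GRCm38.p6) holds 27025 genes and 235 of the 315 genes on the lists, each as the 250 bases before the start of its first entry. Searched on both strands were TAATCC, the core that CRX and OTX2 bind, TTTGAA, the core of the element known as CHR in cell cycle genes, and CCAAT. None of the 3 contains another. Of the genes in it, 6.38% hold TAATCC, 16.3% TTTGAA and 34.5% CCAAT. Of the 11 rod genes, 7 have a promoter there, and Gnat1, Pde6a and Pde6g are among those with none. TAATCC is found in 4 of these 7, which are too few of the list for a share. Gnb1, Pde6b and Slc24a1 hold no match, and in Cnga1, which is not printed, the match starts 228 bases before the gene. Printed here are 3 of the 4, 5′ to 3′ on the strand of the gene, with the match in capitals on either strand. They are Cngb1 (chr8:95306586-95306835, minus strand), with matches that start 58 and 25 bases before the start of the gene, Sag (chr1:87803430-87803679, plus strand), with a match at 87 bases, and Gngt1 (chr6:3993758-3994007, plus strand), with a match at 44 bases.
Cngb1: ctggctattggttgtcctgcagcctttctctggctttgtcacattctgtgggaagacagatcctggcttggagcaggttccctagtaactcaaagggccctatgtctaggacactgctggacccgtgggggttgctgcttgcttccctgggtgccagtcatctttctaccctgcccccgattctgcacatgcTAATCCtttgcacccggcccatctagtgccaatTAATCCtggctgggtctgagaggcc
Sag: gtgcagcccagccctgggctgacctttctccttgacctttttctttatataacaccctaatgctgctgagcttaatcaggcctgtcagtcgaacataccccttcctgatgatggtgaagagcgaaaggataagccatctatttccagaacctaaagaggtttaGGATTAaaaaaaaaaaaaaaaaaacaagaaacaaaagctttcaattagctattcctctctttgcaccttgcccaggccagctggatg
Gngt1: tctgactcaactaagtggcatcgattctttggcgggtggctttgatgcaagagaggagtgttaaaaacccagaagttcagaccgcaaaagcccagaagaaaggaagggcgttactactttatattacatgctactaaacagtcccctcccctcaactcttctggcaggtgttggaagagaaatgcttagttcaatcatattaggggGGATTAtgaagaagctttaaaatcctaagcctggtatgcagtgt

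Of the 38 cell cycle genes 31 have a promoter in the table, and CCAAT is in 25 of them (80.6%), TTTGAA in 8 (25.8%) and TAATCC in 0. Shown are Mki67 (chr7:135716380-135716629, minus strand), with 2 matches to TTTGAA and 3 to CCAAT, Top2a (chr11:99024190-99024439, minus strand), with 2 and 6, and Mcm5 (chr8:75109259-75109508, plus strand), with 0 and 2. Capitals mark matches to either motif on either strand.
Mki67: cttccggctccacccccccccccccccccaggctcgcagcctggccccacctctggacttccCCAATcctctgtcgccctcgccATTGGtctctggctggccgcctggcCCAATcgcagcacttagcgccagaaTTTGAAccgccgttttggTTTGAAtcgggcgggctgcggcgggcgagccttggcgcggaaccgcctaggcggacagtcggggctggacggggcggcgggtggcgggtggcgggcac
Top2a: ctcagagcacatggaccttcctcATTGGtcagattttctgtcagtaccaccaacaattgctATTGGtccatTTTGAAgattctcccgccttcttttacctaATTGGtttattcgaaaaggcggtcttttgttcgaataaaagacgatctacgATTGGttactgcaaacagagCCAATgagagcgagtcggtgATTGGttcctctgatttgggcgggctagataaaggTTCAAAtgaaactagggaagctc
Mcm5: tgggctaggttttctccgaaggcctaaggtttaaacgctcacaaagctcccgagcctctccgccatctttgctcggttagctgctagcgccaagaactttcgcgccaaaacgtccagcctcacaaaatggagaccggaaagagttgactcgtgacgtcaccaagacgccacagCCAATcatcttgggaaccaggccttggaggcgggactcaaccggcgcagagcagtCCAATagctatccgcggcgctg

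Of the 23 bipolar genes 19 have a promoter, 4 of them with TAATCC (21.1%), and of the 13 photoreceptor factors 12, with 2 (16.7%). TAATCC is also in 8 of 27 promoters of the outer segment list (29.6%), 3 of 14 of synapse genes (21.4%) and 4 of 9 of pigment epithelium genes, so it is not particular to rod genes. TTTGAA is in 5 of the 19 bipolar promoters (26.3%) and CCAAT in 9 (47.4%), and CCAAT is in 8 of 9 promoters of pigment epithelium genes, so neither is particular to the cell cycle list. These counts describe the letters in a short window, with no test, and say nothing on binding.

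Bipolar genes rose strongly and late. Grm6, the receptor with which ON bipolar cells read glutamate, was 5.09, 5.06, 4.77, 4.06 and 4.45 at P0, which is below the background limit in 5 of 5, and 14.13, 13.51, 13.79 and 13.44 at P10. Its level at P10 was higher by at least 352-fold (adjusted p = 8.82e-23), a bound that sets the P0 values to the background limit. Of the 23 bipolar genes 19 rose, against 22.7% of all probes, 1 fell and 3 did not pass, with a median change of 2.595, and 4 of the rises are bounds, which leave the median as it is. The summed intensity of the list was 18854 to 24275 at P0 and 127022 to 179218 at P10, highest in P10 replicate 1. Pcp2, a modulator of G proteins in rod bipolar cells, rose by 5.37, and Prkca, the kinase that marks rod bipolar cells, by 3.33. Vsx1, a transcription factor of cone bipolar cells, rose by 5.24 and Gpr179, which holds the signalling complex of ON bipolar cells at its tips, by 4.78. Scgn, a calcium-binding protein of some cone bipolar cells, and the transcription factor Sebox were below background at P0 and at least 35.9-fold and 50.2-fold higher at P10.

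Some bipolar genes did not follow the list. The 1 that fell was Irx5, a transcription factor of some OFF bipolar cells, from 10.77 to 8.39 (log2 change -2.37). Trpm1, the channel that opens downstream of Grm6, was 9.22, 5.83, 9.52, 8.64 and 8.85 at P0 and 9.01, 9.39, 9.66 and 9.86 at P10 on its brightest probe. The groups overlapped and P0 replicate 2 was far below the rest, and the change of 1.07 (adjusted p = 0.0480, exact permutation p = 0.0952) was 0.42 without that retina and no longer past the threshold. P0 replicate 2 was also the lowest of P0 for the pigment enzyme Dct (9.65) and for the summed pigment epithelium genes (6210). The part of adjacent pigment tissue in the Trpm1 signal was not tested. Trpm1 also lost its call without P0 replicate 4 (1.13), P10 replicate 2 (1.10), P10 replicate 3 (1.01) or P10 replicate 4 (0.94), with Cy3 retinas only (0.01), with the slide (0.65) or the scan day (0.90) as a fixed block, with median scaling (0.73), with Xist as a covariate (0.91) and in 5 other settings, the methods' t-test among them. It kept its call in 17 of 32 settings. Its other 2 probes rose by 2.06 and 6.95, so the size of its rise depends on the probe. For Cabp5, a calcium-binding protein of bipolar cells, the brightest probe had a change of -0.26 (adjusted p = 0.715) where the other probe rose by 3.17. Irx6 (0.13) and Gabrr2 (-0.04), the others that did not pass, were named after their values were seen.

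Müller glia genes moved little as a group and in both directions. Of 24, 16 rose and 5 fell, against 22.7% and 25.4% of all probes, and 3 did not pass, with a median of 0.66. With median scaling only the median was 0.04, and 8 rose, against 3408 of 39283 probes. Glul, the enzyme that turns glutamate into glutamine, was 13.29, 13.37, 13.31, 13.34 and 13.32 at P0 and 14.09, 13.87, 13.75 and 13.72 at P10. The groups did not overlap, but the rise of 0.53 (SE 0.0737, adjusted p = 1.58e-07) is small and turns to -0.11 with median scaling only. Rlbp1, the retinaldehyde carrier of the visual cycle, went from 11.76 to 14.54, a rise of 2.78. Clu, a secreted chaperone, rose most, from 11.58 ± 0.238 to 14.79 ± 0.122 (SD), by 3.21 (SE 0.119, adjusted p = 7.29e-22). Apoe, a lipid carrier, rose by 2.18, the water channel Aqp4 by 2.10 and the glutamate transporter Slc1a3 by 0.70, the last no longer past the threshold with median scaling.

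The members that fell include the transcription factors shared with progenitors. Sox9 went from 11.11 to 9.64 (-1.47), Sox2, which is on both lists, fell by 2.34 and Sox8 from 11.26 to 8.50 (-2.76). All 4 P10 retinas were below all 5 of P0 in each of these. Dkk3, a secreted protein related to Wnt antagonists, and the antioxidant enzyme Prdx6 fell by 0.76 and 0.69. Vim, a filament protein of progenitors and Müller glia alike, was 14.66 at P0 and 14.58 at P10 (log2 change -0.08, adjusted p = 0.446). Col9a1 (0.16) and Cd44 (-0.10) did not pass either and were named after their values were seen. Gfap, the filament of astrocytes and stressed Müller glia, rose by 2.21, but at P0 it ranged from 4.22 to 9.10 and the groups overlapped.

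Progenitor genes fell nearly without exception. Foxn4, which primes progenitors for amacrine and horizontal fates, was 14.55, 14.42, 13.998, 14.69 and 14.64 at P0 and 6.83, 7.38, 7.79 and 7.65 at P10, a fall of 132-fold (log2 change -7.05, SE 0.197, adjusted p = 2.84e-25). Gli1, a target of Hedgehog signalling, had the largest fall of all probes, from 13.20 ± 0.346 to 5.99 ± 0.252 (SD; log2 change -7.22, SE 0.170, adjusted p = 4.15e-27), and at P10 it was above background in 3 of 4 retinas. Of the 27 genes of the list 25 fell, against 25.4% of all probes, and 2 rose, with a median of -2.81. Fgf15, a growth factor of progenitors, fell by 6.58, Ccnd1, the cyclin that progenitors use to enter the cycle, by 4.98, and the Wnt modulator Sfrp2 by 3.74. Atoh7, which drives neurogenesis, fell by 5.51 and the Notch target Hes5 by 2.86. Pax6 and Rax, which stay on in some mature cells, fell by 1.11 and 0.68.

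Insm1, a zinc finger factor of newborn neurons, is on the progenitor list but rose, by 0.81 (SE 0.0977, adjusted p = 1.11e-08). It was 14.69, 14.76, 14.91, 14.77 and 14.73 at P0 and 15.41, 15.47, 15.63 and 15.82 at P10, so the groups did not overlap. Its mean was highest at P6, at 15.98. With median scaling only, Insm1 had a change of 0.06 and was not past the threshold.

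Cell cycle genes fell together. Mki67, the antigen of dividing cells, was 15.02, 15.35, 14.74, 15.21 and 14.97 at P0 and 9.11, 8.92, 9.15 and 8.76 at P10, a fall of 67.3-fold (log2 change -6.07, SE 0.143, adjusted p = 4.15e-27). Of 38 genes 37 fell, against 25.4% of all probes, with a median of -4.56 (-4.46 with bounds), and 0 rose. The remaining gene, the mitotic kinase Aurkb, was at or near background at both ages (-0.70, adjusted p = 0.110) and was named after its value was seen. Top2a, the topoisomerase that untangles replicated DNA, fell most, by 96.2-fold (log2 change -6.59, SE 0.117, adjusted p = 5.43e-30). Mcm5, a part of the replicative helicase, fell by 4.01 and the mitotic cyclin Ccnb1 by 5.84. The summed intensity of the list was 458810 to 509931 in the P0 retinas and 29313 to 34562 in those of P10, with no overlap. Hist1h2ah, a replication histone whose feature was saturated on an array and left out of the counts, fell from 18.01 to 15.20 when kept. The saturation makes the size of this fall inexact.

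**Figure D3:**
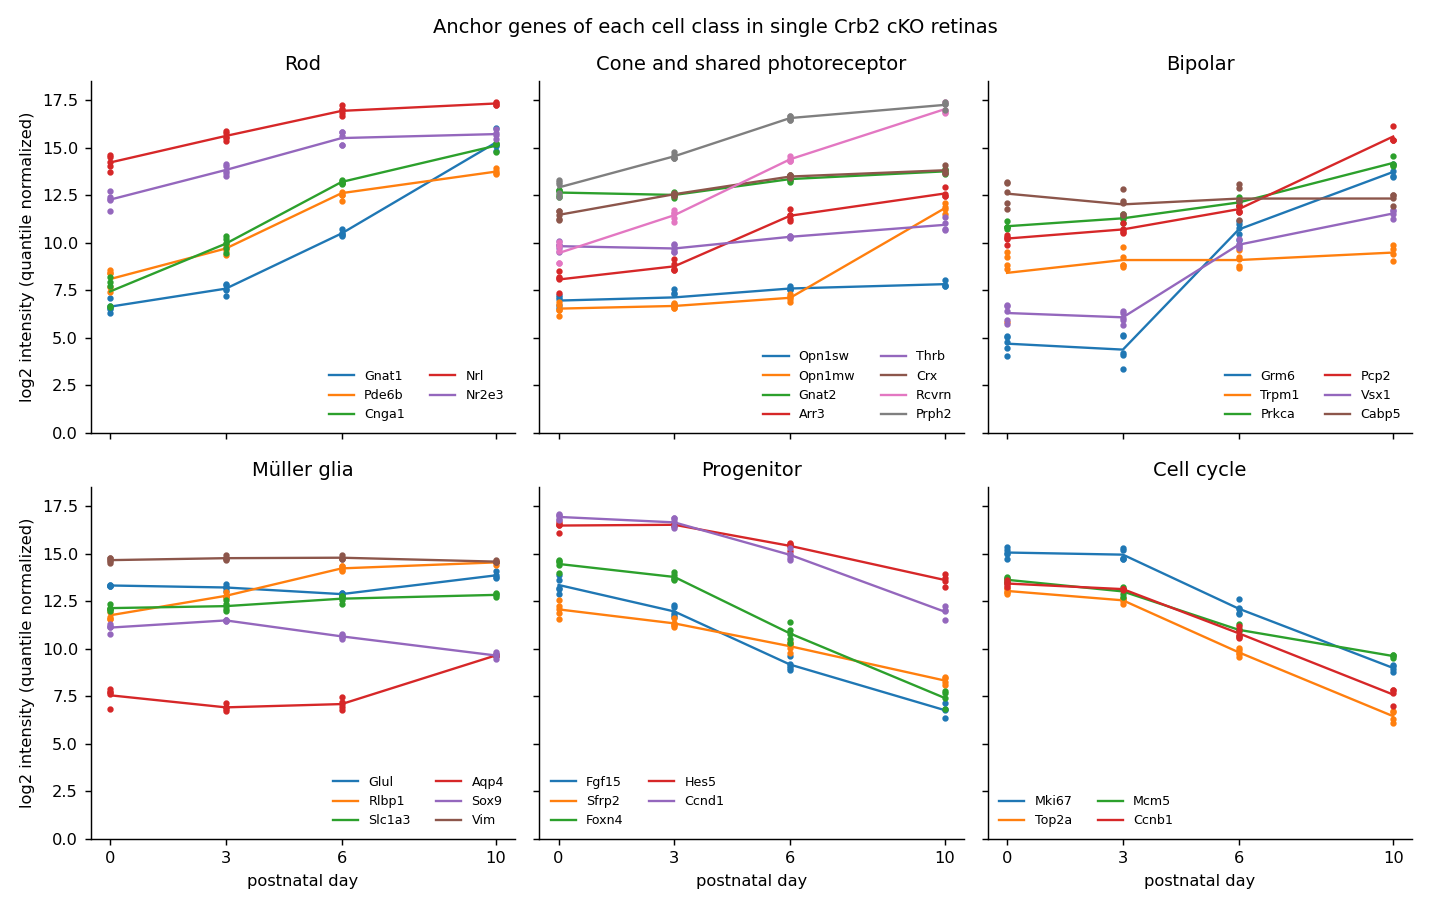
Log2 intensity of genes chosen for their known role in each cKO retina at P0, P3, P6 (5 retinas each) and P10 (4 retinas), with a line through the means. Gnat1 climbs from 6.63 to 15.27 and Grm6 from below background to 13.72, while Mki67 falls from 15.06 to 8.99 and Vim is at 14.66 and 14.58.

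The steps between ages show an order of events. From P0 to P3, 2704 probes rose (6.88%) and 2693 fell (6.86%), together 13.7%. From P3 to P6, 5788 rose (14.7%) and 5222 fell (13.3%), together 28.0%. From P6 to P10, 5300 rose (13.5%) and 5582 fell (14.2%), together 27.7%. These counts compare steps of unequal length, of 3, 3 and 4 days, and the slide or scan day block lowers the number of rises from P0 to P3 by over 1.5 times, to 1707 or 1579. With median scaling they are 152 rises and 90 falls from P0 to P3, 1068 and 1201 from P3 to P6, and 1162 and 2481 from P6 to P10, so the number called in each step depends on the normalization. The steps of the lists given below come from the quantile-normalized fit alone and were not repeated in other settings.

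Rod genes started early. All 11 rose in each of the 3 steps, against 6.88, 14.7 and 13.5% of all probes, with median changes of 1.58, 2.74 and 1.63. A median of 26.4% of the log2 change was reached by P3 and 70.8% by P6. The rod factors Nrl and Nr2e3 made most of their rise before P6. Nrl rose by 1.40 and 1.32 and then by 0.39, and Nr2e3 by 1.56 and 1.68, with a change of 0.21 from P6 to P10 that did not pass (adjusted p = 0.460). Gnat1 rose by 0.95, 2.90 and 4.78, the most of it after P6. Esrrb followed later still, with 0.33, 1.00 and 3.06.

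As a list, bipolar genes had a median step of only -0.05 from P0 to P3, although 5 of 23 rose against 6.88% of all probes. From P3 to P6 they rose by a median of 1.00, with 18 rises against 14.7% of all probes. From P6 to P10 the median was 1.51, with 16 rises against 13.5%. A median of 4.24% of their change was reached by P3 and 41.2% by P6. Grm6 was still below background in 5 of 5 retinas at P3 and above it in 5 of 5 at P6, at 10.69. Vsx1 had its largest step from P3 to P6 (3.82) and Pcp2 from P6 to P10 (3.82). Opn1mw was later than the rod genes, at 6.67 at P3 and 7.10 at P6 before the step of 4.71. Gngt2 did not move in 1 direction, since it rose by 0.65 from P0 to P3 and then fell by 1.38 after P6.

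Cell cycle genes moved less in the first 3 days than later. From P0 to P3 15 of 38 already fell, against 6.86% of all probes, with a median of -0.28. Then 37 fell in both later steps, against 13.3% and 14.2% of all probes, with medians of -2.22 and -1.90. A median of 5.58% of the change was reached by P3 and 54.6% by P6. Mki67 held 14.95 at P3, close to its 15.06 at P0, and then dropped to 12.10 at P6 and 8.99 at P10. Top2a fell by 0.49 and Mcm5 by 0.61 from P0 to P3, both past the threshold. The change of Ccnb1 was -0.29 (adjusted p = 0.174). For all 3 the P3 retinas were all below those of P0. Progenitor genes had median steps of -0.28, -1.02 and -1.21, and Gli1 and Fgf15 fell early, by 1.59 and 1.40 from P0 to P3.

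Müller glia genes had median steps of 0.02, 0.15 and 0.36 and no common course. Rlbp1 rose by 1.02 and 1.44 and then by 0.32, whereas Aqp4 first fell by 0.64 and rose by 2.56 after P6. Glul was 13.32 at P0 and 12.87 at P6 before it rose by 0.99. Sox9 rose by 0.38 to P3 and fell by 0.84 and 1.01 in the later steps.

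**Figure D4:**
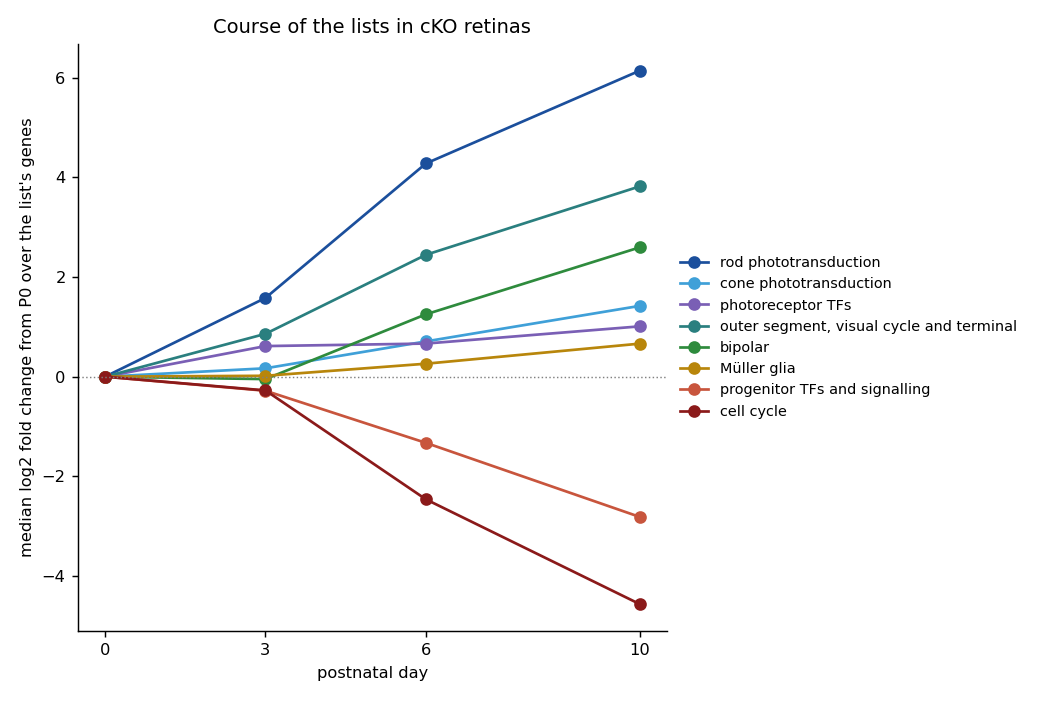
Median log2 change since P0 of each list of genes at P3, P6 and P10 in cKO retinas (5, 5 and 4 retinas), on an axis of age in days. Rod genes rise from the first step, bipolar genes stay near 0 until P3 (median -0.05), and cell cycle genes fall more after P3 than before (median -0.28 at P3).

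Whether the cKO retina matured differently from the control was tested as the difference between the P0 to P10 changes of the genotypes. In limma 0 of 39283 probes passed (0%), with 0.676 as the lowest adjusted p, and an unadjusted p below 0.05 was found for 553, fewer than the 1 in 20 that chance gives. This fit does not use that the cKO and control retina of an array are correlated (0.190 to 0.808 over the 19 arrays). With the array as a fixed block and dye as a covariate 0 passed and 1948 had such a p, with a random effect of the array 0 and 2044 (lowest adjusted p = 0.0774), and with the P10 genotypes exchanged 0 passed and 265 had one. Without control P10 replicate 3, 5 probes passed, 1 with a higher and 4 with a lower change in cKO. A p that misses the threshold does not show that the changes were equal. The list medians in cKO and control were 6.14 and 6.20 for rod, 1.42 and 1.56 for cone, 2.595 and 2.86 for bipolar, 0.66 and 0.81 for Müller glia, -2.81 and -2.76 for progenitor and -4.56 and -4.74 for cell cycle genes. The median of the differences gene by gene was -0.23 for rod, -0.15 for bipolar and 0.17 for cell cycle genes. It was larger for markers of other tissue, at -0.93 for the pigment epithelium (6 of 13 genes with an unadjusted p below 0.05) and 0.92 for erythroid genes (0 of 5), none past the threshold. For the 5 sex-linked transcripts it was -1.99, with list medians of -1.37 in cKO and 0.20 in control retinas, also with none past it. With Xist as a covariate 0 probes passed for the difference.

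Among the probes with the lowest p for this difference were Spp1 and Clu. Spp1, the secreted phosphoprotein osteopontin, was below background in 5 of 5 cKO retinas at P0 and then rose by at least 25.9-fold. The difference of Spp1 between the genotypes therefore has no exact size. Clu rose by 3.21 in cKO and 3.97 in control retinas. Among the genes fixed for their role, and singled out after the values were seen, Glul rose by 0.53 in cKO and 0.92 in controls, and Opn1mw by 5.28 and 5.77. None of these 4 differences passed when adjusted over all probes. A high level of Xist, a transcript of female cells, was found in 4 of 4 cKO retinas at P10 but in 1 of 5 at P0, so sex and age are partly confounded in the cKO comparison. With Xist as a covariate, 8374 probes rose and 9051 fell from P0 to P10.

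**Figure D5:**
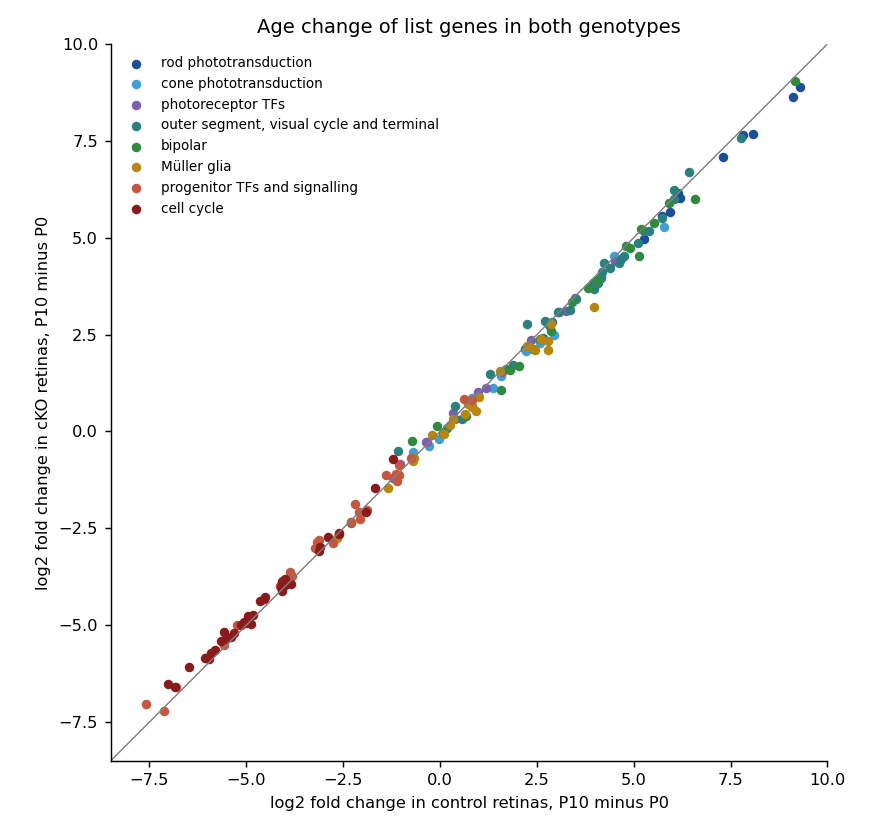
Log2 change from P0 to P10 in cKO retinas (vertical) against control retinas (horizontal) for the genes of the lists, with 5 retinas of each genotype at P0 and 4 at P10. Clu lies at 3.21 against 3.97, and 0 of 39283 probes passed the test of the difference.

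The Crb2 probe, outside the deletion, was 11.77, 11.93, 11.99, 12.25 and 12.16 at P0 and 12.66, 12.38, 12.40 and 12.29 at P10. The groups did not overlap, and the rise of 0.41 (SE 0.0860, adjusted p = 1.34e-04) turns to -0.14 with median scaling only and is not past the threshold with the scan day as a block. In controls the change was 0.34. Crb1 was 9.83 to 9.99 at P0 and 9.47, 9.38, 9.45 and -0.11 at P10, where the last value comes from a spot with very high local background in P10 replicate 4. The size of the change, -2.85 (adjusted p = 0.0917), rests on that spot, and without P10 replicate 4 it was -0.46 (adjusted p = 0.776). The other 3 P10 retinas also lie below all 5 of P0. Crb1 was called as a fall on the Agilent processed signals (-0.55, adjusted p = 1.82e-06), with offset 50 (-1.39), in Cy5 retinas only (-3.70), with dye and a random effect of the array (-2.87), and without P10 replicate 1 (-3.65), 2 (-3.62) or 3 (-3.65). The other Crb1 probe had a change of 0.16 (adjusted p = 0.347), so neither of its 2 probes passed in the main fit. Crb3 had a change of 0.07 (adjusted p = 0.663). Of 15 genes of the Crumbs complex and its junctions 6 rose and 5 fell, against 22.7% and 25.4% of all probes, with a median of 0.07 whose sign differed in 7 of 32 settings. With median scaling 1 rose and 4 fell, and with the scan day as a fixed block 3 and 4.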

How the data were processed

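RNA of single neural retinas was amplified, labelled with Cy3 or Cy5 and hybridised to 19 Agilent arrays with 1 cKO and 1 control retina each. Deposited with the series are scanner files, which give each spot's intensity, local background and flags, and a table in which the authors give single-channel log2 values, made in limma under R by normexp background correction and quantile normalization. The authors' comparison columns (fold changes, ratios and p-values) were not used. Here the scanner intensities were read again, since they allow other settings, and analysed in R 4.3.3 (limma 3.58.1, statmod 1.5.0). Each file lists 44397 features, of which 1377 are controls. Of the other 43020, 7 were saturated and 151 non-uniformity outliers on an array, and the 42862 left hold 39283 probes. Background was corrected with normexp (offset 0), all channels were quantile normalized together, and spots of a probe were averaged. In limma, 8 means (age by genotype) were fitted over 38 retinas, with Benjamini-Hochberg adjustment over all probes genome-wide and a threshold of 0.05. An exact permutation test (two-sided) over the 9 retinas was run for named genes. The fits were tested on simulated data.

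A gene is represented by its brightest probe, and 89 of the 315 list genes have more than 1. All 315 have a probe, 5 under another name in the files. Of the 39283 probes, 25960 have a reference accession, 22609 with the same symbol. A bound sets values of a probe not above background in any retina of a group to the lowest signal well above background in that channel, after loess and Aquantile normalization. Promoters are RefSeq's, build GRCm38.p6. Python 3.11.15, numpy 2.4.6, pandas 2.3.3, scipy 1.17.1 and matplotlib 3.10.9 were used for lists and figures.

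Genes were named by rules: those fixed for their role in a cell class, the largest rise and fall of each list and up to 3 members against its direction, the 3 largest rises and falls of all, rod and cone counterparts, the 3 lowest p of the difference between genotypes, Crb1 to Crb3, sex-linked transcripts, the brightest gene of each list of other cells, and saturated features. Some of these genes are not reported here. Other genes of the lists illustrate their role. The members and lists were chosen with earlier results of these data known.

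The P0 to P10 comparison and its lists were repeated with median scaling only, with offset 50, with loess and Aquantile normalization, on the Agilent processed intensities and on the deposited log2 values, with saturated features kept, filters on background and on a mean above 7, dye as a covariate, 1 dye only, array, slide or replicate number as a block, only the groups compared, only the cKO groups, exchanged P10 genotypes, Xist as a covariate, the methods' t-test, the median over probes, and each retina left out. The steps and the difference between genotypes were repeated with these too, except 1 dye only and the t-test for both, only the groups compared for the steps, and only the cKO groups for the difference, for which the array was also set as a fixed block. The lists were not repeated for the steps. Scan day as a block and leaving out spots of high local background were chosen after seeing the data. Array 20 was left out by the authors.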

Additional observations from a re-analysis of the deposited data

Results flagged for a closer look

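For each of the 76 named genes, the highest and the lowest retina of a group was compared with the spread of its group by Dixon's test. In 152 groups, 18 values stood far from the others, 10 of them at P0 and 8 at P10, where chance gives about 1 in 20 groups. P0 replicate 3 holds 5 of them and P10 replicate 1 holds 4.

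The sex-linked transcripts mark P0 replicate 3. Its log2 intensity of Xist was 10.03, far above the other P0 retinas, and its values of the Y-linked genes Ddx3y (5.18), Eif2s3y (4.41), Kdm5d (3.51) and Uty (4.83) were far below them. Among the P10 retinas, which have high Xist and low Y-linked values throughout, Eif2s3y in replicate 2 was the highest at 4.57.

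P10 replicate 1 was the highest of its group for the phosphodiesterase gene Pde6a (15.33) and for the rod bipolar genes Prkca (14.53) and Pcp2 (16.12), and the lowest for the channel gene Cnga1 (14.79). Among the cKO retinas of P10, this one alone was labelled with Cy3, and it lay on a different slide from the others. P10 replicate 3 was lowest for the nuclear receptor Rxrg (11.43) and highest for the globin gene Hba-a1 (13.99). Crb1 was -0.11 in P10 replicate 4, at a spot of very high local background.

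At P0, replicate 2 was lowest for the channel gene Trpm1 (5.83) and for the pigment enzyme Dct (9.65). Replicate 5 was lowest for the water channel Aqp4 (6.82) and for the Notch target Hes5 (16.08), and replicate 1 for Sox9 (10.75). What set these values apart was not tested.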

How the results depend on the processing

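The medians of the rod, cone, bipolar, Müller glia, progenitor and cell cycle lists kept their sign in all 32 settings. They ranged from 5.41 to 6.76 for rod, 0.84 to 1.66 for cone, 2.32 to 3.34 for bipolar, 0.04 to 0.83 for Müller glia, -3.06 to -2.34 for progenitor and -5.03 to -4.13 for cell cycle genes. Leaving out each cKO retina gave 8542 to 8804 rises and 9415 to 9874 falls from P0 to P10. With the P10 genotypes exchanged 9098 probes rose and 10336 fell, with the deposited log2 values 8836 and 10190, and with the methods' t-test 7912 and 8720. The dyes were unequal, with 3 of 5 P0 and 1 of 4 P10 cKO retinas in Cy3. With only the Cy5 retinas 7580 rose and 8400 fell, and with only the Cy3 retinas, 3 against 1, 7344 rose and 7467 fell, where the lone P10 retina is assumed to vary like the other groups.

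Median scaling only lowered the counts most, to 3408 rises and 5408 falls from P0 to P10, of which 8781 were also called without it. It gave 152 and 90 from P0 to P3, 1068 and 1201 from P3 to P6, and 1162 and 2481 from P6 to P10. The photoreceptor factors that rose were then 5 and the Müller glia genes 8. Glul (-0.11) and Crb2 (-0.14) reversed, neither of them past the threshold. From P0 to P3, 1707 probes rose with the slide as a fixed block, and 1579 rose and 1645 fell with the scan day as one. The difference between genotypes had 0 to 5 probes past the threshold when retinas were left out in turn, the 5 without control P10 replicate 3. Xist reversed with the slide (-1.498) or scan day (-1.17) as a block and is 0 by construction with itself as covariate (-1.09e-15), Ddx3y with the slide (0.35) and the Xist covariate (0.36), and Eif2s3y with the slide (1.23). None of these sex-linked transcripts passed where it reversed. Onecut2 was 0.18 in Cy3 retinas only, and Cabp5 1.46 as the median of its probes. The cause of these shifts was not tested, apart from the covariate.

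With the replicate block, 9030 probes rose and 10224 fell, and 0 passed for the difference (601 unadjusted). Retinas with the same number at P0 and P10 are not paired, and the correlations of their residuals were -0.139 to 0.00684. Among the 76 named genes, most calls held in each setting. Fewest held with median scaling, where 57 kept direction and side, 17 no longer passed and 2 reversed without passing. Age differences cannot be fitted with the array as a fixed block. Signal over background limits genes such as Grm6 at P0 to bounds.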

Other observations

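Other genes of the retina also moved in the cKO retinas between P0 and P10, when 22.7% of all probes rose and 25.4% fell (3408 and 5408 of 39283 with median scaling). Of 19 synapse genes 18 rose (12 with median scaling), with a median of 1.91, and the vesicular glutamate transporter Slc17a7 rose by 5.20. Of 14 amacrine genes 9 rose and 3 fell, with a median of 0.83, and with median scaling 3 rose and 2 fell, with a median of 0.44. Their brightest gene, the vesicular GABA transporter Slc32a1, rose by 1.68 (0.94 and not past the threshold with median scaling), while Ptf1a, which specifies amacrine and horizontal cells, fell by 6.29. Of 6 horizontal cell genes 3 rose and 1, Onecut2, fell by 0.59, with a median of 0.79. The fall of Onecut2 was no longer past the threshold without P10 replicate 2 (-0.40), with median scaling (-1.04), the slide as a fixed block (-0.63), only the groups compared or the methods' t-test (both -0.59), and was 0.18 in Cy3 retinas only. Ganglion cell genes were split, with 5 rises, 9 falls and a median of -0.32 (1, 6 and -0.85 with median scaling), and the neurofilament Nefl rose by 0.98, or by 0.23 with median scaling, where it did not pass.

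Cells from outside the neural lineage were measured by lists of markers, beside the 22.7% of all probes that rose and the 25.4% that fell. Of 12 microglia genes 9 rose and 0 fell, with a median of 1.27. With median scaling 5 rose, and with the median over probes 8 rose and 1 fell, and their brightest gene Itgam had a change of -0.18 (adjusted p = 0.719). Of 11 genes of endothelial cells and pericytes 10 rose and 1, the receptor Kdr, fell by 0.47, with a median of 1.95 that ranged from 1.14 to 3.24 over the settings. Kdr lost its call with median scaling (-1.11), with the slide (-0.16) and with the scan day (-0.31) as a fixed block. Of 4 astrocyte genes 3 rose, with a median of 1.76, and S100b rose by 2.26. Of 5 erythroid genes 3 rose, with a median of 2.05, and Hba-a1 rose by 2.24. In Cy5 or Cy3 retinas only and with the scan day as a block 0 erythroid genes rose, with the slide as a fixed block 2 did, and with median scaling or only the 4 cKO groups 1 did. They were 2 without P0 replicate 3, P0 replicate 4 or P10 replicate 3. Hba-a1 lost its call in Cy5 (1.59) or Cy3 (2.65) retinas only and with median scaling (1.60), the scan day block (1.98) and only the cKO groups (2.24). The summed erythroid intensity was 2887 to 9110 at P0 and 20134 to 23969 at P10.

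Tissue next to the retina differed between single retinas. Of 16 lens genes 0 passed, with a median of -0.65 that was -0.09 without P0 replicate 1, -0.19 without P0 replicate 5, -0.31 without P10 replicate 2 and -1.17 without P10 replicate 4. With the scan day as a block it was -2.75 and 3 fell, and 1 gene rose without P10 replicate 1. Their summed intensity was 60997, 3326, 3397, 4133 and 38867 at P0 and 5166, 2744, 3095 and 21520 at P10, mostly from Cryaa. Of 13 genes of the pigment epithelium 5 rose and 2 fell, together 53.8% against 48.2% of all probes, with a median of -0.15 whose sign differed in 5 of 32 settings. With the slide as a fixed block 2 rose and 1 fell, in Cy3 retinas only 2 and 4, and 4 and 4 without P0 replicate 2. Their summed intensity was 6210 to 21201 at P0 and 11535 to 26642 at P10, and the brightest, Dct, had a change of 0.43 (adjusted p = 0.464), called as a rise in Cy5 retinas only (1.47) and with the P10 genotypes exchanged (1.17). Of 5 sex-linked transcripts Xist rose by 4.91 (adjusted p = 0.0189), and Ddx3y and Eif2s3y were at least 9.98-fold and 15.0-fold lower at P10. Xist was no longer past the threshold without P10 replicate 1 (4.56), nor Eif2s3y without P0 replicate 1 (-5.73) or P0 replicate 4 (-5.70). Ddx3y was not past it without P0 replicate 1 (-4.34), 2 (-4.34), 4 (-4.42) or 5 (-4.35), or without P10 replicate 1 (-4.31), 2 (-4.75) or 4 (-4.65). All 3 also lost their calls with median scaling, in Cy3 retinas only, with the slide or scan day as a block and with the P10 genotypes exchanged (Xist 1.04, Ddx3y -0.37, Eif2s3y -0.96). Kdm5d (-0.50) and Uty (-1.37) did not pass, except Kdm5d without P0 replicate 3 (-0.97) and Uty with only the groups compared. The part of these tissues and of sex in other results was not tested.

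Of the 7 saturated features, Hist1h2ah alone passed when kept. The others were Tuba1b (-0.28), Rps14 (0.01), NAP111445-1 (-0.05), LOC100044496 (-0.20), Slc10a1 (0.27) and Elk1 (0.19). As saturation caps a signal, these sizes are not exact, and a feature that did not pass may still have changed.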
